A study of Rattus norvegicus with 16 samples.

Results

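The Slc25 family, the mitochondrial solute carriers, was described in sorted cells of the rat carotid body, a small organ beside the carotid artery that senses blood oxygen. Genes whose annotated symbol is Slc25a followed by a number were taken, and each was represented by the single-gene probe with the highest mean over all 16 arrays. This gave 43 genes of the 18166 named by single-gene probes of the array. Slc25a4 has a further single-gene probe, and 2 more probes name several genes, among them Slc25a5, so that Slc25a5 has no value of its own here. The rats were of the Wistar strain, aged 9 to 11 weeks, and either breathed ambient air (normoxia) or spent 3 days in hypoxic chambers. The carotid bodies of both sides were pooled and dispersed with enzymes, and the cells were sorted with an antibody to HNK-1, a sugar epitope on neural surface proteins. HNK-1+ cells are labelled neuroblasts, which are immature cells of the neural lineage, and HNK-1- cells are labelled glomus cells, which are the chemoreceptor cells. The groups were normoxic glomus cells, normoxic neuroblasts, hypoxic glomus cells and hypoxic neuroblasts, with 4 arrays each. The HNK-1- population is defined by the absence of an epitope and can hold any other cell type of the organ. Markers of glial, endothelial, fibroblast and pericyte cells had values in the HNK-1+ population too, as given below.

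Slc25 proteins are built from repeated modules of paired membrane helices and move metabolites, nucleotides and cofactors across the inner mitochondrial membrane, with a few members in other membranes. They exchange ADP for ATP, bring in phosphate, and carry the carboxylates and amino acids that link cytosolic and mitochondrial metabolism, and the iron, glycine and glutathione used for heme synthesis and redox balance. Glomus cells are known for mitochondria whose respiration responds to falling oxygen, and hypoxia-inducible factors change the transcription of many metabolic genes in most tissues.

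In hypoxia 18.6% of the carriers passed the test in glomus cells and 25.6% in neuroblasts, against 18.9% and 32.1% of all probes. The 43 carriers as a set were thus not called more often than the array. Slc25a22 (a glutamate carrier), Slc25a23 and Slc25a24 (calcium-regulated ATP-Mg/phosphate carriers) and Slc25a17 (a cofactor carrier of the peroxisomal membrane) were lower in both, and Slc25a22 fell most, 4.25-fold in glomus cells and 3.28-fold in neuroblasts. The ADP/ATP carrier Slc25a4 and the phosphate carrier Slc25a3 did not pass the test in either population. Between the sorted populations, 1 of 43 carriers passed in normoxia (2.33%, against 1.82% of all probes), the ornithine carrier Slc25a15, and 0 of 43 passed in hypoxia (against 0.283% of all probes).

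The promoters of the 4 carriers that were lower in both populations are shown with those of Slc25a25 and Slc25a40. Slc25a25 is another calcium-regulated ATP-Mg/phosphate carrier, and Slc25a40 is a glutathione carrier that was higher in hypoxic glomus cells. Each stretch runs 5′ to 3′ from 250 bases before to 50 bases after the gene's start, from RefSeq on GRCr8. Capitals mark the letters ACGTG or GCGTG, the core of the hypoxia-inducible factor motif, and TGACG, the half-site of the cAMP response element, on either strand. The 2 motifs can overlap, since TGACGTG holds one of each, and TGACGTCA holds TGACG on both strands. The coordinates are chr1:205965828-205966127 (minus strand) for Slc25a22, chr9:1985316-1985615 (minus strand) for Slc25a23, chr2:199449175-199449474 (plus strand) for Slc25a24, chr7:114767114-114767413 (minus strand) for Slc25a17, chr3:36116532-36116831 (minus strand) for Slc25a25 and chr4:26631334-26631633 (minus strand) for Slc25a40.
Slc25a22: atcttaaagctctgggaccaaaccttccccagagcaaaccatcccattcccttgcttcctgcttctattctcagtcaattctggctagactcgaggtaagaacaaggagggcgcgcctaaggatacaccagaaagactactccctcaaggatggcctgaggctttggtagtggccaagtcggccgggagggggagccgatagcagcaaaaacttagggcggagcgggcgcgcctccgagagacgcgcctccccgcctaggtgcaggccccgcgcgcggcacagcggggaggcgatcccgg
Slc25a23: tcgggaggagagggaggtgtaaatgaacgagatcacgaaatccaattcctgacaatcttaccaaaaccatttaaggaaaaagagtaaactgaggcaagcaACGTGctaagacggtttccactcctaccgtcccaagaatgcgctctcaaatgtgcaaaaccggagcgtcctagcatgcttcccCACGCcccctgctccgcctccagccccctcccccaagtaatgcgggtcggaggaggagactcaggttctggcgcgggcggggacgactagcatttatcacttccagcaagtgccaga
Slc25a24: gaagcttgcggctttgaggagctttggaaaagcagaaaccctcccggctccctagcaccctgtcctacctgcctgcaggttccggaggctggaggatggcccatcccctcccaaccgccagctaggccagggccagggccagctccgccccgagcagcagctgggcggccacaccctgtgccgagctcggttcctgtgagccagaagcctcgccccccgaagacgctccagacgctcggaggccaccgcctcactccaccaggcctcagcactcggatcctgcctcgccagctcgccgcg
Slc25a17: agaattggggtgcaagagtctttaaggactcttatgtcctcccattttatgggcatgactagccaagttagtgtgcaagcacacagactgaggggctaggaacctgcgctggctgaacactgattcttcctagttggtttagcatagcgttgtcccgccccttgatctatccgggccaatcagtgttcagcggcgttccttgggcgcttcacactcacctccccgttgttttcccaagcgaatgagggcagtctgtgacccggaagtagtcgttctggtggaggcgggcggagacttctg
Slc25a25: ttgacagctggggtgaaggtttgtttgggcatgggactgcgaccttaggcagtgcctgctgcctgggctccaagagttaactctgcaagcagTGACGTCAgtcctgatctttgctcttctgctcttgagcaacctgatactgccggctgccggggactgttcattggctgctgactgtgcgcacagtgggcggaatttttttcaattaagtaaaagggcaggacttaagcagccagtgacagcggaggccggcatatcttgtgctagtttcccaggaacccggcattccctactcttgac
Slc25a40: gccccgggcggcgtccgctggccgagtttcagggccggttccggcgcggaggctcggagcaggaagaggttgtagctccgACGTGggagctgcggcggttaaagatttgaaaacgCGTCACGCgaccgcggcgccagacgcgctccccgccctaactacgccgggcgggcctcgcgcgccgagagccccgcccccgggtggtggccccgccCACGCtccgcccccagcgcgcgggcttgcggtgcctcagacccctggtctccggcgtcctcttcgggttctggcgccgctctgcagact

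Of the 43 carriers, 36 had a promoter in the reference. The hypoxia-inducible factor core stood in 20 of these 36 (55.6%), against 42.9% of all 27457 promoters, and the half-site in 11 (30.6%), against 22% of all. The carriers' promoters were richer in G and C (median 60.3% against 52.3%), and both motifs hold the letters CG. Among the 4 carriers lower in both populations, the core stood in the Slc25a23 promoter, with 2 matches, and the half-site in 0 of 4. Slc25a40 had 3 matches to the core and 1 to the half-site, and Slc25a25 had 1 stretch that reads as the half-site on both strands. No fixed rule led to showing Slc25a25 and Slc25a40. Among carriers that passed in hypoxia and are not shown, Slc25a41, Slc25a18 and Slc25a34 held neither motif. Slc25a15, Slc25a38, Slc25a44 and Slc25a51 held at least 1 match. Of the 5 carriers higher in hypoxia in either population, 2 had the core (40%), Slc25a40 and Slc25a51. Of the 10 that were lower in either population, 8 had a promoter, and 3 of these 8 held the core (37.5%). Both shares rest on few promoters, 5 and 8, and cannot be set apart from the shares of all promoters and of the carriers' promoters. These letter matches are a description of the window and were not tested for binding.

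The values are the authors' log2 values. Array medians were 4.42 to 4.64 in normoxic glomus cells, 4.40 to 4.61 in normoxic neuroblasts, 4.71 to 4.74 in hypoxic glomus cells and 4.71 to 4.94 in hypoxic neuroblasts. The labels name no date or batch, so batch effects and hypoxia cannot be told apart. Across all probes, hypoxic neuroblast replicate 1 correlated least with its own group (mean Pearson r = 0.914, while the other 15 arrays had 0.949 or more). By the limma test used below, 5 of 11 glomus cell markers were lower in neuroblasts in normoxia, namely Slc18a1 (4.06-fold), Kcnk3 (3.34-fold), Chga (2.39-fold), Cox4i2 (2.28-fold) and Ndufa4l2 (2.00-fold), and 0 in hypoxia. Th, the dopamine-synthesis gene of glomus cells, did not pass between the populations and read 12.63 ± 0.09 in normoxic glomus cells and 12.30 ± 0.19 in normoxic neuroblasts (SD, n = 4). In hypoxia Th read 12.11 ± 0.28 and 11.13 ± 1.20, and its fall in neuroblasts was 2.25-fold (limma adjusted p = 0.03). Of 9 neuroblast markers, 6 were higher in neuroblasts in normoxia and 0 in hypoxia. Of all probes, 1.82% passed between the populations in normoxia and 0.283% in hypoxia. The median differences kept their direction, at 1.36 and 0.35 for neuroblast markers and -0.99 and -0.39 for glomus cell markers (log2). Within neuroblasts, 7 of the 9 neuroblast markers were lower in hypoxia and 0 higher (median difference -1.07). Of the 11 glomus cell markers, 3 were higher and 4 lower in hypoxic neuroblasts. Within glomus cells, 1 of the 9 neuroblast markers was lower in hypoxia, and of the 11 glomus cell markers 1 was higher and 4 were lower. Hypoxia was accompanied by higher values of 6 of 9 proliferation markers in glomus cells and 7 of 9 in neuroblasts. Over all probes, 9.37% were higher and 9.5% lower in hypoxic glomus cells, and 18.4% and 13.7% in hypoxic neuroblasts. Of 14 macrophage markers, 5 were higher in hypoxic than in normoxic glomus cells and none in neuroblasts. Of the same 14, 6 in normoxia and 8 in hypoxia were lower in neuroblasts than in glomus cells, and their array means ran from 4.84 to 6.65 in normoxic and from 5.95 to 6.67 in hypoxic glomus cells, against 4.05 to 4.49 and 4.47 to 5.10 in neuroblasts. Glial markers averaged 5.63 to 6.11 in normoxic and 6.18 to 6.67 in hypoxic neuroblasts, and 3 of 11 were higher in hypoxia there. In glomus cells 1 of the 11 was higher in hypoxia and 1 lower. Of 9 endothelial markers, 2 were higher in hypoxia in each population, against 9.37% of all probes in glomus cells and 18.4% in neuroblasts. Their array means ran from 4.08 to 4.58 in normoxic and from 5.0 to 5.27 in hypoxic neuroblasts, without overlap, and from 4.94 to 6.43 and 5.68 to 6.54 in glomus cells. Cldn5, an endothelial junction gene, was 12.6-fold lower in neuroblasts than in glomus cells in normoxia and rose 3.40-fold in hypoxic glomus cells and 6.06-fold in hypoxic neuroblasts. Fibroblast markers averaged 5.29 to 6.65 per array in normoxic glomus cells and 5.58 to 8.21 in normoxic neuroblasts. Pericyte and smooth muscle markers averaged 5.34 to 6.28 and 6.05 to 7.36. In normoxia 1 of 14 fibroblast markers was higher and 1 lower in neuroblasts than in glomus cells. Of 8 pericyte and smooth muscle markers 1 was higher, Mcam (5.84-fold). No marker value was 0, and the part of these cell types in the carrier values was not tested. In such sorted bulk samples, fewer cells of a type and less RNA per cell cannot be told apart.

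**Figure D1:**
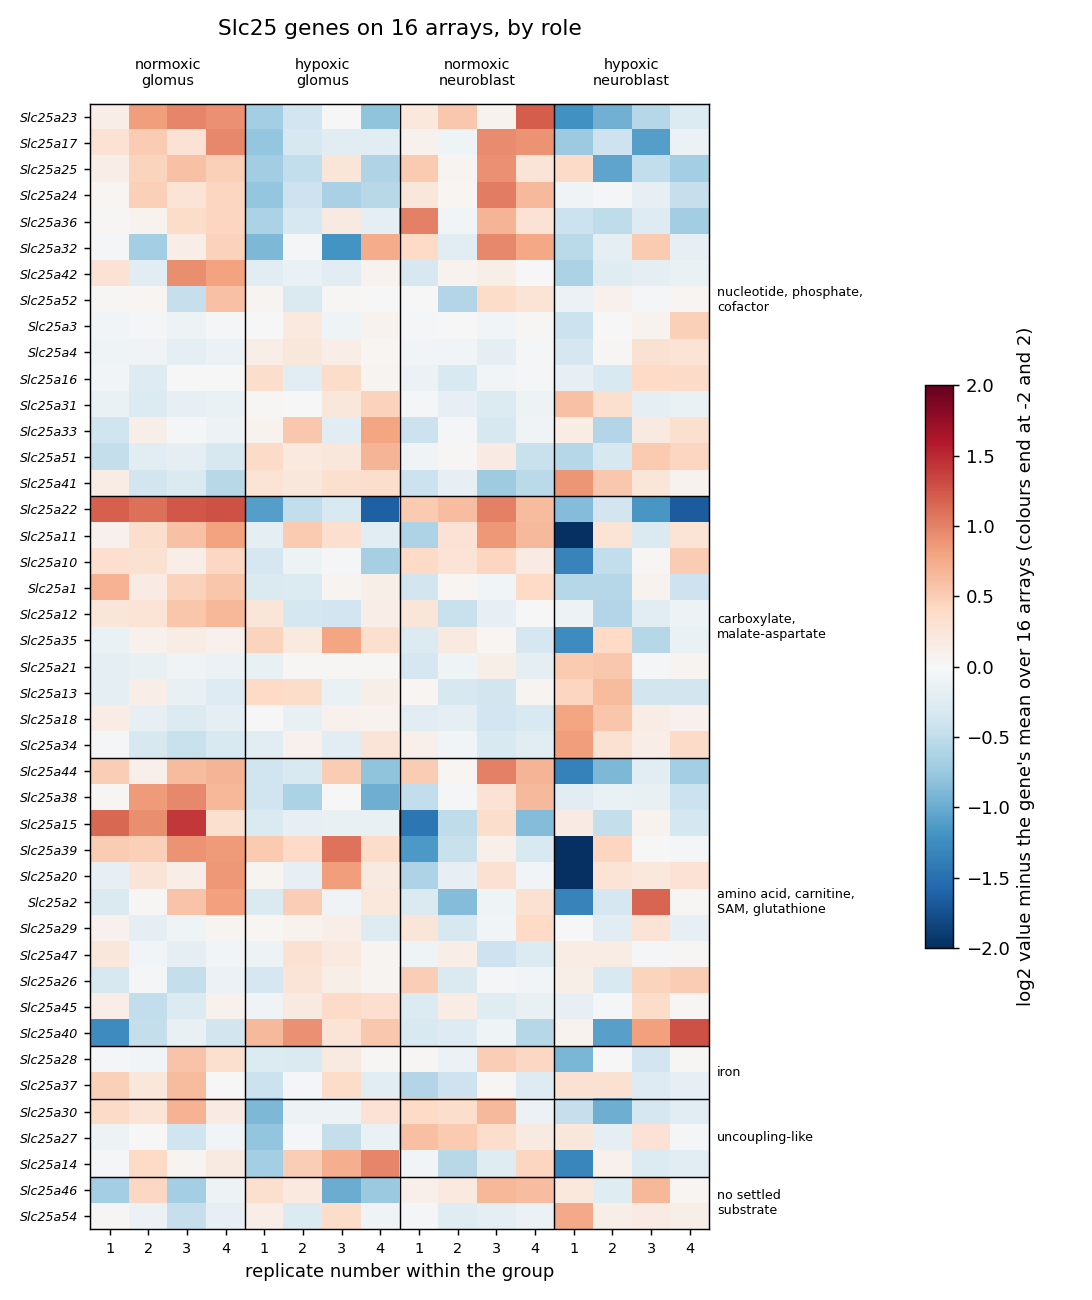
Values of the 43 Slc25 genes in each of the 16 arrays, ordered by the solutes that the carriers move and shown relative to each gene's mean (log2). The 8 hypoxic arrays lie below the 8 normoxic ones for Slc25a22, and hypoxic neuroblast replicate 1 is lowest for Slc25a11, Slc25a20 and Slc25a39.

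Each comparison was a limma fit over all 30429 probes, and a gene passed at an adjusted p under 0.05 (Benjamini-Hochberg over all probes). In hypoxic against normoxic glomus cells, 8 of 43 carriers passed (18.6%), 2 higher and 6 lower, while 18.9% of all probes passed, so that the carriers' share lay near that of the array as a whole. In neuroblasts 11 of 43 passed (25.6%), 3 higher and 8 lower, against 32.1% of all probes. Of all probes, 9.37% were higher and 9.5% lower in glomus cells, and 18.4% were higher and 13.7% lower in neuroblasts. An unadjusted p under 0.05 was found for 15 carriers in glomus cells and 15 in neuroblasts, against 31.7% and 45.7% of all probes. Arrays of the 2 conditions did not overlap for 14 carriers in glomus cells (32.6%, against 26.4% of all probes) and for 11 in neuroblasts (25.6%, against 28% of all probes). The median hypoxia difference of the 43 carriers was -0.10 in glomus cells, against 0.17 for all probes, and -0.16 in neuroblasts, against 0.25 for all probes (log2). With each array centred on its median, which removes most of that general shift, 0 carriers were higher and 12 lower in glomus cells, and 1 was higher and 12 lower in neuroblasts. Quantile normalization, which also brings the medians of all probes near 0 (0.01 and 0.03), gave 2 higher and 5 lower in glomus cells and 4 higher and 8 lower in neuroblasts. After centring all probes split into 1370 higher and 3783 lower in glomus cells and 1826 and 5464 in neuroblasts, and after quantile normalization into 2215 and 2490, and 3278 and 3701. The carriers' median in glomus cells was 0.01 without normoxic glomus replicate 4, -0.03 without hypoxic glomus replicate 2 or 4 and -0.19 without normoxic glomus replicate 1. In neuroblasts it was 0.01 without hypoxic neuroblast replicate 1, with 2 carriers higher and 8 lower, -0.05 without normoxic neuroblast replicate 1 and -0.06 without hypoxic neuroblast replicate 2.

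Slc25a22 carries glutamate with a proton into mitochondria. It read 8.48, 8.38, 8.52 and 8.55 in the normoxic and 6.18, 6.78, 6.98 and 5.64 in the hypoxic glomus cell arrays. In neuroblasts it read 7.81, 7.90, 8.29 and 7.91 in normoxia and 6.41, 6.92, 6.11 and 5.61 in hypoxia. All hypoxic arrays of each population lay below all normoxic arrays of that population. The hypoxia difference was -2.09 ± 0.28 in glomus cells (log2, SE, n = 4 against 4, limma adjusted p = 7.35e-05) and -1.72 ± 0.28 in neuroblasts (adjusted p = 0.000192). Its close relative Slc25a18, the other glutamate carrier, went the opposite way in neuroblasts, from 4.86, 4.89, 4.69 and 4.78 to 5.86, 5.64, 5.22 and 5.17. The hypoxic neuroblast arrays all lay above the normoxic ones for Slc25a18, a difference of 0.67 ± 0.17 (adjusted p = 0.00687), while glomus cells differed by 0.12 ± 0.17 (adjusted p = 0.645). Centred on array medians, the Slc25a18 difference in neuroblasts was 0.39 and no longer passed (adjusted p = 0.061), while after quantile normalization it was 0.61 and passed (adjusted p = 0.0232). In brain Slc25a18 is known from astrocytes. As given above, 3 of 11 glial markers were higher in hypoxic neuroblasts, against 18.4% of all probes. In hypoxic glomus cells 1 was higher and 1 lower, against 9.37% and 9.5% of all probes. Glial median differences were 0.32 in neuroblasts and 0.28 in glomus cells, against 0.25 and 0.17 for all probes. The part of glial cells in the Slc25a18 difference was not tested.

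The calcium-regulated ATP-Mg/phosphate carriers set the adenine nucleotide pool of the mitochondrial matrix. Of this kind, Slc25a23, Slc25a24 and Slc25a25 were each lower in hypoxia in at least 1 population. Slc25a23 read 6.47, 7.17, 7.31 and 7.26 in normoxic and 5.66, 5.96, 6.34 and 5.53 in hypoxic glomus cells. In neuroblasts it read 6.55, 6.87, 6.41 and 7.55 and 5.12, 5.38, 5.77 and 6.07. The oxygen conditions did not overlap in either population, and the differences were -1.18 ± 0.28 (adjusted p = 0.00598) and -1.26 ± 0.28 (adjusted p = 0.00251). Slc25a24 read 5.70, 6.15, 5.94 and 6.10 in normoxic and 4.89, 5.25, 5.02 and 5.11 in hypoxic glomus cells, and 5.89, 5.70, 6.69 and 6.31 and 5.60, 5.63, 5.51 and 5.20 in neuroblasts. Its arrays did not overlap either, with differences of -0.91 ± 0.20 (adjusted p = 0.00405) and -0.66 ± 0.20 (adjusted p = 0.0193). The call for Slc25a24 in neuroblasts was lost without normoxic neuroblast replicate 3 (difference -0.48, adjusted p = 0.0742) and without replicate 4 of that group (adjusted p = 0.0548), and with only the neuroblast arrays in the fit (adjusted p = 0.074). Slc25a25 read 5.64, 5.17, 6.04 and 5.37 in normoxic and 5.51, 4.06, 4.63 and 4.44 in hypoxic neuroblasts, with replicate 1 of the hypoxic group within the normoxic range. It fell by 0.90 ± 0.28 there (adjusted p = 0.0229), and this call was lost without normoxic neuroblast replicate 3 (adjusted p = 0.0789) or hypoxic neuroblast replicate 2 (adjusted p = 0.072) and with only the neuroblast arrays (adjusted p = 0.0657). In glomus cells Slc25a25 differed by -0.80 ± 0.28 and stood just outside the threshold (adjusted p = 0.055). It passed there without any 1 of normoxic neuroblast replicate 3, hypoxic glomus replicate 3 and hypoxic neuroblast replicate 1 or 2 (adjusted p from 0.0165 to 0.0498).

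Slc25a41, a relative of these carriers that lacks the calcium-binding domain, moved the other way. It read 4.02, 4.29, 3.74 and 3.92 in normoxic and 5.33, 4.99, 4.70 and 4.53 in hypoxic neuroblasts, without overlap. The difference of 0.90 ± 0.19 passed (adjusted p = 0.00225) and passed also after centring (0.61, adjusted p = 0.00959). In glomus cells it read 4.60, 4.08, 4.16 and 3.90 and then 4.72, 4.68, 4.78 and 4.80, again without overlap, a difference of 0.56 ± 0.19 that did not pass (adjusted p = 0.0525). It passed without normoxic glomus replicate 1 or hypoxic neuroblast replicate 1 or 4 (adjusted p = 0.0206, 0.0244 and 0.0437). Slc25a41 and Slc25a23 are neighbouring genes in GRCr8, with no other protein-coding gene annotated between them, and in hypoxic neuroblasts the first rose while the second fell. Slc25a24 has Slc25a54 as such a neighbour, and Slc25a54 did not pass in either population (0.22 ± 0.18 and 0.43 ± 0.18).

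Slc25a17 brings cofactors such as coenzyme A, FAD and NAD into peroxisomes. It read 7.27, 7.49, 7.26 and 7.94 in normoxic and 6.21, 6.66, 6.75 and 6.75 in hypoxic glomus cells, and 7.06, 6.90, 7.93 and 7.88 and 6.25, 6.57, 5.88 and 6.86 in neuroblasts. All hypoxic values lay below all normoxic values of the same population. The differences were -0.90 ± 0.26 (adjusted p = 0.0237) and -1.05 ± 0.26 (adjusted p = 0.00632). In glomus cells the call was lost without normoxic glomus replicate 4 (adjusted p = 0.0893), without hypoxic glomus replicate 1 (adjusted p = 0.08) and after quantile normalization (adjusted p = 0.0591).

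**Figure D2:**
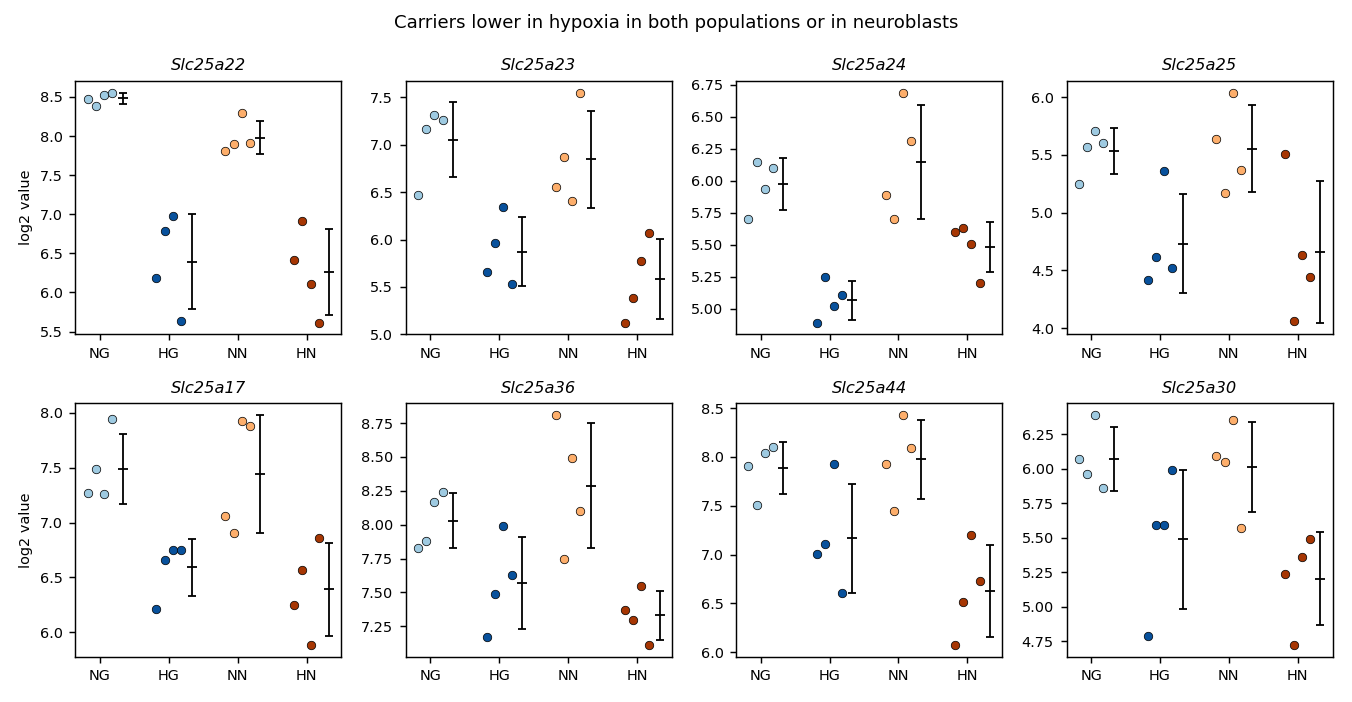
Log2 values of 8 carriers in normoxic glomus cells (NG), hypoxic glomus cells (HG), normoxic neuroblasts (NN) and hypoxic neuroblasts (HN). Points are arrays, and bars give the mean ± SD of 4 arrays. Slc25a22, Slc25a23, Slc25a24 and Slc25a17 show no overlap between oxygen conditions within a population, while Slc25a25 does.

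In neuroblasts 3 further carriers passed as lower in hypoxia without passing in glomus cells. Slc25a44, which carries branched-chain amino acids, read 7.93, 7.45, 8.43 and 8.09 in normoxia and 6.07, 6.51, 7.20 and 6.73 in hypoxia. The difference was -1.35 ± 0.28 (adjusted p = 0.00183) against -0.73 ± 0.28 in glomus cells (adjusted p = 0.0866). Slc25a36, a pyrimidine nucleotide carrier, read 8.81, 7.75, 8.49 and 8.10 and then 7.37, 7.30, 7.55 and 7.11 in neuroblasts. It differed by -0.96 ± 0.22 (adjusted p = 0.00383), against -0.46 ± 0.22 in glomus cells (adjusted p = 0.166). Slc25a30, an uncoupling-protein relative, read 6.09, 6.05, 6.35 and 5.57 and then 5.24, 4.72, 5.36 and 5.49 in neuroblasts. Its difference was -0.81 ± 0.25 (adjusted p = 0.0189), against -0.58 ± 0.25 in glomus cells (adjusted p = 0.112). None of the 3 overlapped between conditions in neuroblasts, and all had negative differences in glomus cells too. The Slc25a30 call was lost without normoxic neuroblast replicate 3 (adjusted p = 0.0624) or hypoxic neuroblast replicate 2 (adjusted p = 0.0589). After centring, Slc25a44 and Slc25a30 passed in glomus cells as well (adjusted p = 0.0479 and 0.039), and Slc25a44 passed there without hypoxic glomus replicate 3 (-0.98, adjusted p = 0.019).

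In glomus cells 2 further carriers passed as lower. Slc25a15 exchanges ornithine and citrulline for the urea cycle and for arginine and polyamine metabolism. It read 6.68, 6.46, 6.94 and 5.85 in normoxic and 5.24, 5.37, 5.39 and 5.39 in hypoxic glomus cells, without overlap. The difference of -1.14 ± 0.30 passed (adjusted p = 0.0132), though not without normoxic glomus replicate 3 (difference -0.98, adjusted p = 0.0545). In neuroblasts Slc25a15 read 4.09, 5.03, 5.88 and 4.67 in normoxia and 5.70, 5.06, 5.60 and 5.18 in hypoxia, with overlap. That difference was 0.47 ± 0.30 (adjusted p = 0.228), and it passed without normoxic neuroblast replicate 3 (0.79, adjusted p = 0.0377). Slc25a38 imports the glycine from which heme synthesis starts. It read 5.58, 6.40, 6.52 and 6.22 in normoxic and 5.15, 4.93, 5.55 and 4.58 in hypoxic glomus cells, with the highest hypoxic array just below the lowest normoxic one. The difference was -1.13 ± 0.26 (adjusted p = 0.00486), against -0.33 ± 0.26 in neuroblasts (adjusted p = 0.312). Of 6 erythroid markers, 0 passed in glomus cells and 2 were higher in hypoxic neuroblasts, against 18.4% of all probes. These were Hbb-b1, 2.25-fold, and Epor, 1.42-fold (adjusted p = 0.0199 and 0.0152), and the part of erythroid cells in these values was not tested.

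Higher values in hypoxic glomus cells were found for 2 carriers. Slc25a40, a mitochondrial glutathione carrier, read 4.83, 5.61, 5.94 and 5.72 in normoxic and 6.73, 6.99, 6.36 and 6.62 in hypoxic glomus cells, without overlap. The difference was 1.15 ± 0.37 (adjusted p = 0.0373). In neuroblasts it read 5.77, 5.83, 6.0 and 5.51 and then 6.15, 4.99, 6.90 and 7.35, with hypoxic replicate 2 below all normoxic arrays and the others above them. The neuroblast difference of 0.57 ± 0.37 did not pass (adjusted p = 0.231), but without that replicate it was 1.02 (adjusted p = 0.0137). Slc25a51, the mitochondrial NAD importer, read 9.32, 9.57, 9.59 and 9.47 in normoxic and 10.18, 9.99, 10.01 and 10.47 in hypoxic glomus cells, without overlap. It differed by 0.68 ± 0.23 (adjusted p = 0.046), against 0.10 ± 0.23 in neuroblasts (adjusted p = 0.739). Both rises lost their call after centring, Slc25a40 at 0.94 (adjusted p = 0.132) and Slc25a51 at 0.46 (adjusted p = 0.272), and both kept it after quantile normalization, at 1.21 and 0.65 (adjusted p = 0.0416 and 0.0262). The Slc25a40 call was also lost without normoxic glomus replicate 1, 2 or 4 (adjusted p = 0.109, 0.0634 and 0.0606) or hypoxic glomus replicate 1, 2 or 4 (adjusted p = 0.0781, 0.0932 and 0.0684). The Slc25a51 call was lost when any 1 of the 8 glomus cell arrays, or normoxic neuroblast replicate 1 or 2, was left out (adjusted p from 0.0543 to 0.132).

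Slc25a34, a carrier without a settled substrate, was the remaining rise in neuroblasts. It read 5.46, 5.31, 5.05 and 5.13 in normoxia and 6.20, 5.67, 5.49 and 5.74 in hypoxia, without overlap, a difference of 0.54 ± 0.18 (adjusted p = 0.0325). The call held after quantile normalization (0.58, adjusted p = 0.0483) and was lost after centring (0.26, adjusted p = 0.27) and with only the neuroblast arrays (adjusted p = 0.087). It was also lost without normoxic neuroblast replicate 3 or 4 (adjusted p = 0.0897 and 0.077) and without hypoxic neuroblast replicate 1 (0.40, adjusted p = 0.0947). Its glomus cell difference was 0.25 ± 0.18 (adjusted p = 0.356).

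**Figure D3:**
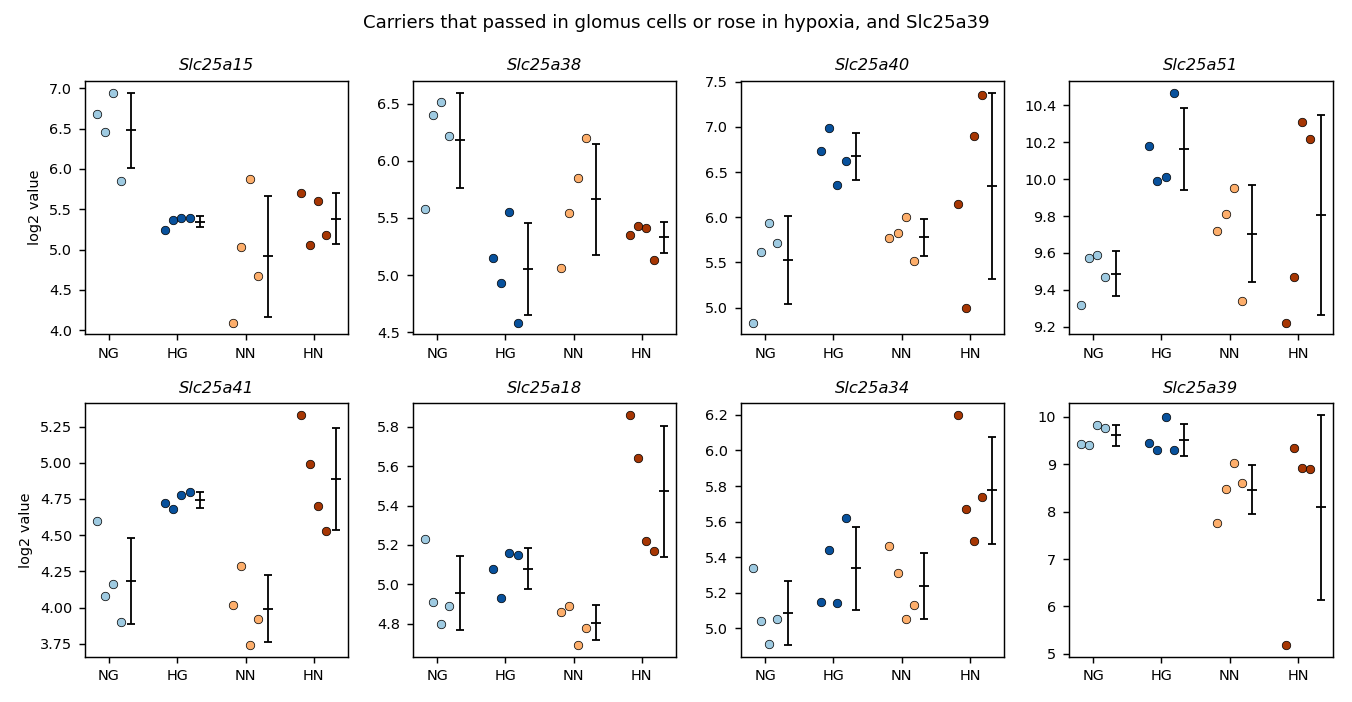
Log2 values of 8 more carriers in normoxic glomus cells (NG), hypoxic glomus cells (HG), normoxic neuroblasts (NN) and hypoxic neuroblasts (HN). Points are arrays, and bars give the mean ± SD of 4 arrays. Slc25a15 and Slc25a38 are lower and Slc25a40 and Slc25a51 higher in hypoxic than in normoxic glomus cells, and hypoxic neuroblast replicate 1 lies at 5.18 for Slc25a39.

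The carriers of the core of oxidative phosphorylation showed small differences. Slc25a4, the ADP/ATP exchanger of heart, muscle and brain, read 10.67, 10.69, 10.58 and 10.64 in normoxic and 10.90, 10.99, 10.89 and 10.80 in hypoxic glomus cells. The hypoxic arrays all lay above the normoxic ones, by 0.25 ± 0.15 (adjusted p = 0.274), and neuroblasts differed by 0.15 ± 0.15 (adjusted p = 0.45). The further single-gene probe of Slc25a4 overlapped between conditions in both populations. It differed by 0.085 ± 0.17 in glomus cells and 0.08 ± 0.17 in neuroblasts (adjusted p = 0.754 and 0.719). Slc25a3, which imports phosphate for ATP synthesis, read 10.34, 10.36, 10.29 and 10.35 in normoxic and 10.40, 10.59, 10.31 and 10.47 in hypoxic glomus cells. Its differences were 0.11 ± 0.17 and 0.06 ± 0.17 (adjusted p = 0.682 and 0.803). The median difference of all probes was 0.17 and 0.25 in these comparisons.

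The carriers of the malate-aspartate shuttle, a route that moves reducing equivalents into mitochondria, did not pass. Slc25a12 and Slc25a13, the aspartate/glutamate carriers known as aralar and citrin, differed by -0.52 ± 0.20 and 0.31 ± 0.23 in glomus cells and -0.16 ± 0.20 and 0.23 ± 0.23 in neuroblasts, with adjusted p = 0.0767, 0.371, 0.522 and 0.43. Slc25a11, the oxoglutarate/malate carrier, read 8.19, 9.10, 9.68 and 9.46 in normoxic and 5.09, 9.09, 8.53 and 9.08 in hypoxic neuroblasts, where replicate 1 alone was far below the rest. Its difference of -1.16 ± 0.63 (adjusted p = 0.155) became -0.21 without that array. Slc25a1, the citrate exporter that feeds cytosolic acetyl-CoA, read 7.76, 7.23, 7.54 and 7.63 in normoxic and 6.78, 6.80, 7.13 and 7.19 in hypoxic glomus cells, without overlap. Its difference of -0.57 ± 0.20 stood just outside the threshold (adjusted p = 0.0565), and it passed after centring (-0.78, adjusted p = 0.0151) and without any 1 of normoxic glomus replicate 2, normoxic neuroblast replicate 1 or 4 and hypoxic neuroblast replicate 1 or 3 (adjusted p from 0.0411 to 0.0491).

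The mitoferrins Slc25a37 and Slc25a28, which import iron, did not pass. Slc25a28 differed by -0.29 ± 0.23 in glomus cells and -0.53 ± 0.23 in neuroblasts (adjusted p = 0.399 and 0.0806), and in neuroblasts it passed without hypoxic neuroblast replicate 4 (-0.64, adjusted p = 0.0459), while without replicate 1 of that group it was -0.33 (adjusted p = 0.252). Slc25a37 differed by -0.42 ± 0.21 and 0.35 ± 0.21 (adjusted p = 0.188 and 0.196).

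Of all probes, 9.37% were higher and 9.5% lower in hypoxic glomus cells, and 18.4% and 13.7% in hypoxic neuroblasts. By solute, 1 of 15 nucleotide, phosphate and cofactor carriers was higher and 3 were lower in hypoxic glomus cells, and 1 was higher and 5 lower in neuroblasts. Among 10 carboxylate and shuttle carriers, 0 were higher and 1 lower in glomus cells, and 2 were higher and 1 lower in neuroblasts. Among 11 amino acid, carnitine, S-adenosylmethionine and glutathione carriers, 1 was higher and 2 were lower in glomus cells, and 0 and 1 in neuroblasts. Of 3 uncoupling-protein relatives 1 was lower in neuroblasts, and neither the iron carriers nor Slc25a46 and Slc25a54 passed. Slc25a34 and Slc25a35, whose substrates are not settled, are counted with the carboxylate carriers, which they resemble. In all, 28 carriers passed in neither population, with differences from -0.58 to 0.41 in glomus cells and from -1.16 to 0.43 in neuroblasts. Slc25a20, the carnitine/acylcarnitine carrier of fatty acid oxidation, read 6.79, 7.25, 7.72 and 7.36 in normoxic and 5.16, 7.68, 7.62 and 7.69 in hypoxic neuroblasts, where replicate 1 alone was far below the rest. Its difference was -0.24 ± 0.44 with and 0.38 without that array. Slc25a10, the dicarboxylate carrier, differed by -0.58 ± 0.28 in glomus cells, without overlap, and by -0.64 ± 0.28 in neuroblasts (adjusted p = 0.163 and 0.0858). Without hypoxic neuroblast replicate 1 it passed in glomus cells (adjusted p = 0.0388), while its neuroblast difference was then -0.30 (adjusted p = 0.302). Without replicate 4 of that group it passed in neuroblasts (adjusted p = 0.0112). After centring, Slc25a12 and Slc25a42 passed as lower in glomus cells, and Slc25a1, Slc25a10, Slc25a27 and Slc25a28 in neuroblasts. The remaining carriers were Slc25a2 and Slc25a29 (basic amino acids), Slc25a26 (S-adenosylmethionine), Slc25a16 and Slc25a42 (the latter a coenzyme A carrier), Slc25a32 (folate and FAD), Slc25a33 (pyrimidine nucleotides), Slc25a52 (NAD), Slc25a31 (a testis ADP/ATP carrier), Slc25a21 (oxoadipate), Slc25a45, Slc25a46 (an outer membrane protein) and Slc25a47. Slc25a42 passed in glomus cells without normoxic glomus replicate 2 (adjusted p = 0.0101), and Slc25a21 in neuroblasts without hypoxic neuroblast replicate 3 or 4 (adjusted p = 0.0388 and 0.0446). Slc25a21, Slc25a31 and Slc25a54 lay in the dimmest 25% of probes.

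Across the 43 carriers the hypoxia differences of glomus cells and neuroblasts, which share no arrays, had a Pearson correlation of 0.727 and a Spearman correlation of 0.695 across genes, against 0.844 (Pearson) for all single-gene probes. Genes are not independent replicates. The sign was the same for 37 carriers, of which 16 were higher and 21 lower in both. The 4 carriers that passed in both populations were 50% of the 8 that passed in glomus cells and 36.4% of the 11 that passed in neuroblasts. Over all probes, 4458 passed in both in the same direction, 77.6% of those that passed in glomus cells and 45.7% of those that passed in neuroblasts. Whether a response differed between the populations was tested by the interaction, which 0 of 43 carriers passed, against 0.0789% of all probes, while 4 had an unadjusted p under 0.05, against 6.62% of all probes. Slc25a15 had the largest interaction, 1.60 ± 0.43 (adjusted p = 0.284), with a fall in hypoxic glomus cells and a positive difference in neuroblasts, and it passed without normoxic neuroblast replicate 3 (1.92, adjusted p = 0.0484). By p-value Slc25a37, Slc25a18 and Slc25a38 followed, at 0.77 ± 0.30, 0.55 ± 0.24 and 0.80 ± 0.36 (adjusted p = 0.665, 0.733 and 0.748).

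**Figure D4:**
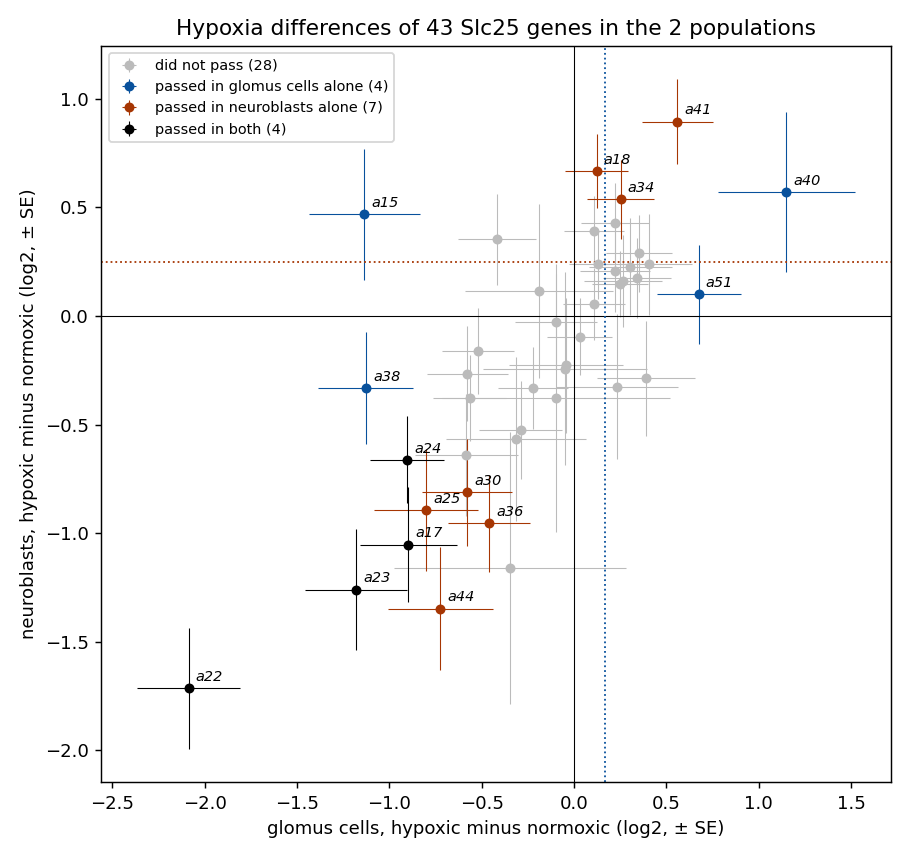
Hypoxic minus normoxic log2 difference of each of the 43 carriers in glomus cells (x axis) and neuroblasts (y axis). Dotted lines mark the medians of all probes, 0.17 and 0.25. Slc25a22 lies farthest to the lower left, and Slc25a15 lies below 0 on the x axis and above 0 on the y axis.

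Between the populations in normoxia, Slc25a15 was the 1 carrier of 43 that passed (2.33%), against 1.82% of all probes. No carrier was higher in neuroblasts, against 0.996% of all probes, and 1 was lower, against 0.828%. An unadjusted p under 0.05 was found for 7, against 9.36% of all probes. The normoxic arrays of Slc25a15 read 6.68, 6.46, 6.94 and 5.85 in glomus cells and 4.09, 5.03, 5.88 and 4.67 in neuroblasts. Neuroblast replicate 3 lay just above glomus replicate 4, so the groups overlapped, and the difference was -1.57 ± 0.30 (adjusted p = 0.00826). With only the normoxic arrays in the fit it did not pass (adjusted p = 0.0518). The other 42 carriers had differences from -1.14 to 0.66 and adjusted p from 0.189 to 0.999.

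Slc25a39, the other glutathione carrier, had the lowest of these differences. It read 9.43, 9.40, 9.82 and 9.77 in normoxic glomus cells and 7.76, 8.47, 9.02 and 8.61 in normoxic neuroblasts, and the groups did not overlap. The difference of -1.14 ± 0.62 did not pass with all 16 arrays (adjusted p = 0.661). It passed without hypoxic neuroblast replicate 1 (adjusted p = 0.0142) and with only the normoxic arrays (adjusted p = 0.0432). That array read 5.18 against 8.90 to 9.35 in the others of its group, and the pooled SD of Slc25a39 within groups was 1.03. Slc25a22 and Slc25a27, an uncoupling-protein relative of neural tissue, also had arrays without overlap in normoxia, at -0.51 ± 0.28 and 0.55 ± 0.19 (adjusted p = 0.673 and 0.225). These made 3 of 43 carriers without overlap (6.98%), against 7.39% of all probes.

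Between the populations in hypoxia, 0 of 43 carriers passed, against 0.283% of all probes, and 6 had an unadjusted p under 0.05, against 11.1% of all probes. The smallest p-values belonged to Slc25a35, which has no settled substrate, to Slc25a14, an uncoupling-protein relative of brain, and to Slc25a34. Their differences were -0.83 ± 0.26, -0.81 ± 0.33 and 0.44 ± 0.18 (adjusted p = 0.254, 0.388 and 0.394). Without hypoxic neuroblast replicate 1 they were -0.54, -0.52 and 0.30. Slc25a35 read 8.10, 7.84, 8.44 and 7.97 in hypoxic glomus cells and 6.39, 8.05, 7.08 and 7.51 in hypoxic neuroblasts, with overlap. Slc25a18 was the 1 carrier without overlap, higher in hypoxic neuroblasts by 0.39 ± 0.17 (adjusted p = 0.409), against 4.48% of all probes without overlap. The difference of Slc25a39 was -1.42 ± 0.62 with all arrays and -0.45 without hypoxic neuroblast replicate 1.

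**Figure D5:**
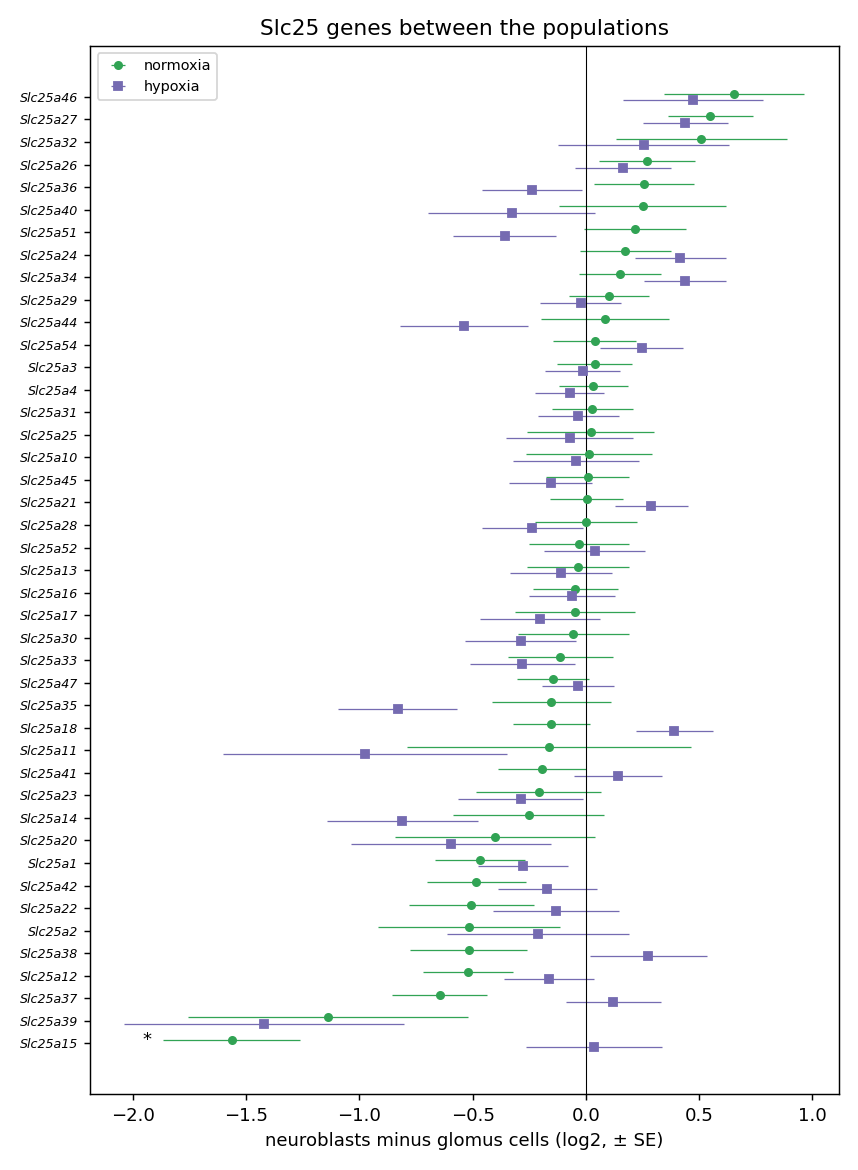
Neuroblast minus glomus cell log2 difference of the 43 carriers in normoxia (circles) and in hypoxia (squares), with bars of ± SE from the limma fit and asterisks at those that passed. Slc25a15 in normoxia carries the only asterisk, and Slc25a39 lies at -1.14 in normoxia and -1.42 in hypoxia.

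Other genes of carrier biogenesis and mitochondrial transport were read in the hypoxia comparisons from lists chosen with earlier results of these arrays known. Carriers reach the inner membrane through the outer membrane pore, small chaperones and the inner membrane insertion complex. Of 13 such import genes, 6 were higher and 1 lower in hypoxic glomus cells, and 8 were higher and 1 lower in neuroblasts. The shares of all probes were 9.37% higher and 9.5% lower in glomus cells, and 18.4% and 13.7% in neuroblasts. The medians of the import genes were 0.68 and 0.79, against 0.17 and 0.25 for all probes. The chaperone genes Timm8a1, Timm10 and Timm10b and the insertion pore gene Timm22 rose in both, by 2.02, 1.44, 1.76 and 1.25 in glomus cells and 1.82, 1.72, 1.62 and 1.35 in neuroblasts (log2, adjusted p from 8.51e-06 to 0.00603). Tomm40, the outer membrane pore, was the import gene that fell, with -1.01 ± 0.23 and -1.22 ± 0.23 (adjusted p = 0.00434 and 0.000657). After centring the import counts were 4 higher and 1 lower in glomus cells and 6 higher and 1 lower in neuroblasts.

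Of 21 carriers and channels without an Slc25a symbol, 1 was higher and 5 were lower in glomus cells. In neuroblasts 5 of them were higher and 5 lower, against the shares of all probes given above. Among them are Ucp2, Ucp3, Mtch1 and Mtch2, relatives that the choice by symbol left out of the 43. After centring the counts were 1 higher and 7 lower in glomus cells and 1 higher and 9 lower in neuroblasts, and after quantile normalization 3 and 5, and 5 and 6. The serine transporter Sfxn1 fell by 1.76 and 1.53 and its relative Sfxn3 by 1.73 and 1.69 (adjusted p = 0.00163, 0.00297, 8.07e-05 and 4.5e-05). Abcb8 of the same list differed by -1.35 ± 0.20 and -1.39 ± 0.20 (adjusted p = 0.000155 and 5.7e-05). The calcium uniporter gene Mcu differed by -1.07 ± 0.21 in glomus cells (adjusted p = 0.00159) and did not pass in neuroblasts. Mcub, its inhibitory relative, differed by 1.58 ± 0.34 and 2.50 ± 0.34 (adjusted p = 0.00368 and 4.3e-05). Of the 4 soluble malate-aspartate enzymes, Mdh1 and Mdh2, the malate dehydrogenases, rose by 0.93 and 0.78 in glomus cells and 0.60 and 0.84 in neuroblasts. Got1, the cytosolic aspartate aminotransferase, fell by 0.75 and 0.59, and after centring Mdh1 and Mdh2 did not pass. In neuroblasts Got1 did not pass after quantile normalization or without hypoxic neuroblast replicate 1. Of 10 iron-sulfur and heme genes, 2 were higher in glomus cells and 4 in neuroblasts, against 9.37% and 18.4% of all probes, and 0 were lower. Among those higher were the ferredoxin genes Fdx1 (1.22 ± 0.20 and 1.84 ± 0.20) and Fdx2 (1.23 ± 0.24 and 1.45 ± 0.24). After centring 2 of these 10 were higher in each population, and 0 in glomus cells and 1 in neuroblasts lower. None of these 4 lists had a gene that passed between the populations in either oxygen condition, against 1.82% of all probes in normoxia and 0.283% in hypoxia. At such shares, lists of this size can be without a call.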

How the data were processed

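RNA of sorted carotid body cells was hybridised to a 1-colour Affymetrix rat gene array, from 500 pg of total RNA per sample made into biotinylated cDNA, per the labels' protocols. The authors' deposited values are taken as log2. The base is not stated, and it was read from the values, which run from 0.87 to 13.33, and from the tool that the submitters' processing notes name, Transcriptome Analysis Console. For background correction, normalization and the tool's version, the sources used here give nothing, and the number of arrays limits the precision. Probe genes came from the platform annotation, and all 43 carriers were found with the same symbol in the RefSeq gene table for GRCr8. No further normalization and no filter were applied.

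One mean per group was fitted to each of the 30429 probes over all 16 arrays (limma 3.58.1, lmFit and eBayes, 12 residual degrees of freedom, R 4.3.3), and 5 comparisons were read from it, two-sided, with Benjamini-Hochberg adjustment over all probes. Errors of differences are limma standard errors. The p-values set each difference against the spread between arrays within groups, estimated over all 4 groups. Nothing in the labels ties samples to separate animals, so this spread may be technical. Carriers and lists were chosen with earlier results of these data known. The genes named in full were all carriers that passed in any comparison, a fixed set of well-known carriers, and the 3 with the smallest p-values in comparisons with few or no calls. Some other carriers, among them Slc25a10, Slc25a20 and Slc25a39, lay outside this choice and were taken up for their values. Alternatives were array centring, quantile normalization, leaving out dim probes, an intensity trend, other fits, the replicate number as a block, probe averaging and leaving out each array. For the related lists, centring, quantile normalization and the fit lacking hypoxic neuroblast replicate 1 were chosen after seeing the data. Plots were made in Python 3.11.15 (matplotlib 3.10.9).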

Additional observations from a re-analysis of the deposited data

Results flagged for a closer look

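Within groups of 4 arrays, the highest or lowest value of a carrier was compared with the rest by Dixon's ratio, the gap to the nearest array over the range of the group. Of 172 groups of arrays, 10 (5.81%) lay past the critical value, and chance flags about 1 in 20 groups. Hypoxic neuroblast replicate 1 accounts for 4 of the 10. It read 5.09 for Slc25a11 against 8.53 to 9.09 in the other arrays of its group, 5.16 for Slc25a20 against 7.62 to 7.69, and 5.18 for Slc25a39 against 8.90 to 9.35. For Slc25a54 it was the highest, at 3.33 against 2.69 to 2.74. This array was the lowest of its group in 18 of 43 carriers, and the cause was not tested.

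Hypoxic glomus replicate 1 was lowest for Slc25a15, at 5.24 against 5.37 to 5.39, for Slc25a17, at 6.21 against 6.66 to 6.75, and for Slc25a21, at 2.54 against 2.70 to 2.71. Hypoxic glomus replicate 2 read 3.25 for Slc25a52 against 3.55 to 3.59. Normoxic glomus replicate 1 read 6.47 for Slc25a23 against 7.17 to 7.31, and normoxic neuroblast replicate 3 read 10.58 for Slc25a4 against 10.70 to 10.72. In Slc25a15, Slc25a21 and Slc25a4 the gap was at most 0.16, where the other 3 arrays lay almost together.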

How the results depend on the processing

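Each carrier was refitted in 5 comparisons under 23 alternatives, 16 of which left out 1 array. Of 20 calls, 10 held under all of them: Slc25a22, Slc25a23, Slc25a24 and Slc25a38 in glomus cells, and Slc25a17, Slc25a22, Slc25a23, Slc25a36, Slc25a41 and Slc25a44 in neuroblasts. The other 10 were lost under at least 1 alternative, 18 results without a call gained one, and 0 reversed. Centring each array on its median gave 0 higher and 12 lower carriers in glomus cells, and 1 higher and 12 lower in neuroblasts. Leaving out 1 array moved the higher calls in glomus cells between 0 and 3, the lower calls in neuroblasts between 5 and 10, the interaction calls between 0 and 1 and the lower calls between populations in normoxia between 1 and 2. The lowest count in neuroblasts came without normoxic neuroblast replicate 3.

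The replicate number as a block gave 10 lower and 3 higher carriers in glomus cells and 3 higher and 9 lower in neuroblasts. Same-numbered arrays did not all deviate together (correlations of deviations between -0.105 and 0.205). With 4 pairs per comparison these correlations cannot decide whether the numbers pair the samples, and the labels do not say. An array correlated best with its own number in 1 or 2 of 4 cases per pair of groups.

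The unstated normalization, the wide spread of Slc25a11, Slc25a39 and Slc25a20 (pooled SD of 1.04, 1.03 and 0.72) and the general shift of the arrays with oxygen limit these values, most of all the small rises.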
